A study of Homo sapiens with 3 samples.

Results

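Prostaglandin and leukotriene pathway genes were described in 3 stable lines of PANC-1, a cell line established from a human pancreatic ductal adenocarcinoma. The 9 genes were PLA2G4A, PTGS1, PTGS2, PTGES, PTGER4, HPGD, ALOX5, ALOX5AP and LTA4H, out of 19775 genes on the arrays, and every probe set that the platform annotation gives to one of them alone was used (21 of 54613 probe sets). The control line carried the empty MSCV vector, a retroviral vector, the second line expressed wild-type JMJD3 and the third a mutant JMJD3, with 1 array per line and no further treatment. JMJD3, encoded by KDM6B, removes the methyl marks on histone H3 through which Polycomb complexes silence genes. The mutation, and whether a line is a clone or a pool, are not given in the labels. The genes were chosen with their values in these arrays known, so all values are a description, and with 1 array per line no difference has a replicate check and no test was run.

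Prostaglandins and leukotrienes are short-lived lipid signals made from arachidonic acid. Cytosolic phospholipase A2 (PLA2G4A) frees arachidonic acid from membranes, the cyclooxygenases (PTGS1, PTGS2) turn it into prostaglandin H2, and terminal synthases such as PTGES make prostaglandin E2, which acts on receptors such as PTGER4 and is inactivated by HPGD. In the other branch 5-lipoxygenase (ALOX5), helped by its membrane partner ALOX5AP, makes leukotriene A4, which LTA4H hydrolyses to leukotriene B4. PTGS2 is the inducible cyclooxygenase and is often raised in pancreatic carcinoma, and ALOX5 and ALOX5AP are best known from leukocytes.

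The deposited values are log2 signals. Signals at or under the pooled median of the arrays (log2 5.48, the floor) were set to it, a gene counts as measured between 2 arrays if either lies over it, and a fold with one side at the floor is a lower bound. The arrays had median log2 signals of 5.48 to 5.50, and 12438 to 12571 genes lay over the floor. KDM6B read log2 5.53 in the control, 6.73 in the wild-type and 6.45 in the mutant array at 1556067_a_at. In the same order it read 6.02, 6.75 and 6.51 at 1556066_at, and 7.60, 7.66 and 7.65 at its brightest probe set 41387_r_at. Probe set 41386_i_at read 6.99, 6.99 and 6.88, and 213146_at lay under the floor at 5.12 in all arrays. The labels do not say which probe sets of KDM6B read the introduced sequence. Of 6 markers of simple and ductal epithelium 5 lay over the floor in each array, with CDH1 under it throughout, and their levels differed between arrays. Read in the order control, wild-type, mutant, KRT19 was at 5.55, 8.0 and 7.73, KRT8 at 11.76, 11.97 and 10.67, KRT7 at 9.66, 10.80 and 9.16 and EPCAM at 6.17, 5.83 and 7.07. KRT18, the brightest of the 6, was at 13.40, 13.47 and 12.83. The summed linear signal of the 6, most of it from KRT18, was 15230, 17479 and 9854. Of 5 fibroblast markers 3 lay over the floor, and the summed linear signal of the 5 was 1337, 1916 and 1488. COL1A1 read 10.16, 10.69 and 10.38 at its brightest probe set and between 5.15 and 7.24 at its others. PDGFRB read 6.86, 7.46 and 6.23. DCN read 5.68, 5.86 and 5.68 at 211813_x_at and lay under the floor at its other probe sets. COL3A1 and LUM lay under the floor throughout. The part of these marker differences in the values of the eicosanoid genes was not tested.

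The promoters of PTGS2 and PLA2G4A are shown because these genes had the same order of levels in the 3 arrays, and those of PTGS1, which has 2 listed starts, because it is the other cyclooxygenase and had a different order. Each is the 250 bases before a RefSeq start (GRCh38.p14), on the gene's strand from 5′ to 3′. Capitals mark letters that match a searched motif on either strand. PTGS2 lies at chr1:186680424-186680673 on the minus strand, PLA2G4A at chr1:186828699-186828948 on the plus strand, and the PTGS1 windows at chr9:122370283-122370532 and chr9:122375052-122375301 on the plus strand.
PTGS2: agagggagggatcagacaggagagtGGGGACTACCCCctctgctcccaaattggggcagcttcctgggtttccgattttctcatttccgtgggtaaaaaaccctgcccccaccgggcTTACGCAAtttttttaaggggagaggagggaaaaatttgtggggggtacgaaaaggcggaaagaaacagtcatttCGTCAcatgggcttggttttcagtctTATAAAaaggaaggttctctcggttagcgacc
PLA2G4A: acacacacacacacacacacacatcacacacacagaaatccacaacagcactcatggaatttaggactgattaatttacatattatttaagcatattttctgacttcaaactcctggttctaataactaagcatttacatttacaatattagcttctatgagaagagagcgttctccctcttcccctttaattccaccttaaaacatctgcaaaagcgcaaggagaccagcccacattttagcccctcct
PTGS1, start 1: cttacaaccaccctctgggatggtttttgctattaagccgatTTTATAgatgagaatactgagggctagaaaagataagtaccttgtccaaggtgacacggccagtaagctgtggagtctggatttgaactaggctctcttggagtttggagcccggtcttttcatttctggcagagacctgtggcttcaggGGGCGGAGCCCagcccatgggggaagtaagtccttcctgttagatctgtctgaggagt
PTGS1, start 2: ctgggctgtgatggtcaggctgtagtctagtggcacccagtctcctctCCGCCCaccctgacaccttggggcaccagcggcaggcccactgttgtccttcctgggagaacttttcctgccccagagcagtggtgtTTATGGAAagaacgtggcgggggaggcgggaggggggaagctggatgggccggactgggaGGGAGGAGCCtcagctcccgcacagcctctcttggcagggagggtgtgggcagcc

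In PTGS2 the capitals are, from left to right, overlapping NF-kB matches (the letters GGG and CC with any 5 bases between, -225 to -214 from the start), a C/EBP match (TTNNGNAA, -133 to -126), the CRE core CGTCA (-58 to -54) and a TATA box (TATAAA, -32 to -27). Of all 35116 RefSeq windows of the same length, 54.4% held the NF-kB letters, 33.2% the C/EBP letters, 21.2% the CRE core and 10.7% the TATA box. The PLA2G4A window held none of the 8 motifs searched. In PTGS1 a GC box (GGGCGG, in 42.6% of all windows) overlapped NF-kB letters before the first start, where TATAAA also matched on the other strand at -208 to -203. Before the second start there were a GC box, a C/EBP match and an NF-kB match. No window of the members held the full CRE (TGACGTCA, in 1.65% of all windows), AP-1 (TGANTCA, 6.57%) or GAS (TTCNNNGAA, 6.57%) letters. A window was found for 8 of the 9 members, all but ALOX5. The GC share of the window was 50.4% for PTGS2 and 38.8% for PLA2G4A, beside a median of 58.0% over all windows. These matches describe the letters only, and binding was not measured.

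**Figure D1:**
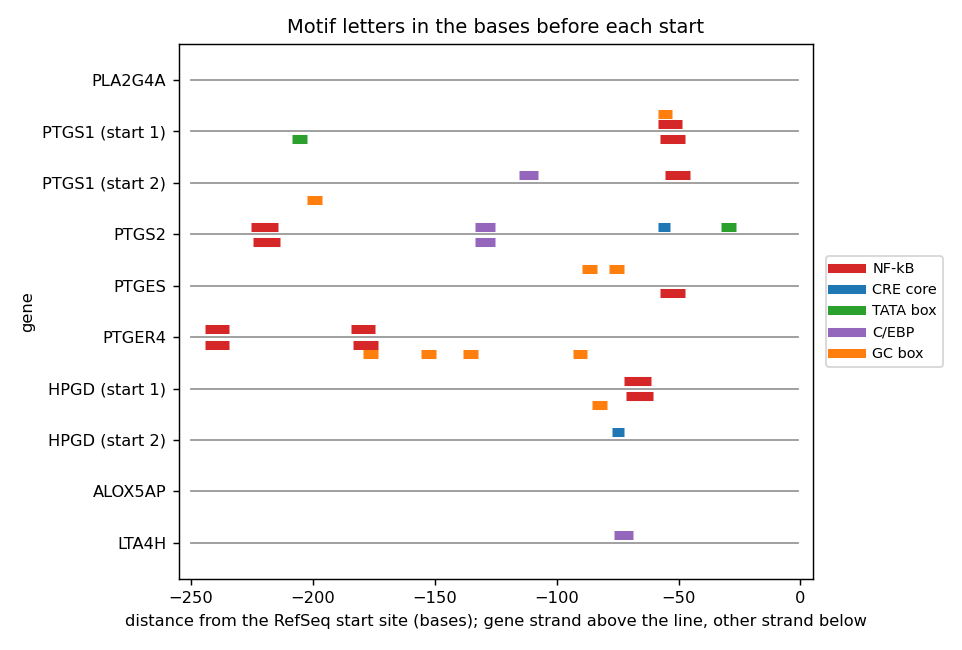
Motif matches in the 250 bases before the RefSeq starts of 8 members, with distance from the start in bases on the horizontal axis and one line per start; marks above a line are on the gene's strand and marks below on the other strand. PTGS2 has NF-kB, C/EBP, CRE core and TATA box marks, while the PLA2G4A and ALOX5AP lines have none. NF-kB marks also lie before starts of PTGS1, PTGES, PTGER4 and HPGD. C/EBP marks also lie before starts of PTGS1 and LTA4H, a CRE core mark before an HPGD start and a TATA box mark before a PTGS1 start.

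PLA2G4A, which supplies arachidonic acid to both branches, was lowest with wild-type JMJD3 and highest with mutant JMJD3. Its only probe set, 210145_at, read log2 9.86 in the control, 8.58 in the wild-type and 10.75 in the mutant array. Against control the signal was thus 2.43-fold lower in the wild-type array and 1.85-fold higher in the mutant array, and the wild-type array lay 4.50-fold under the mutant array. Of 12829 genes measured in that last comparison, 25 had a more negative difference.

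PTGS2 took the same order, in both of its probe sets. The brighter one, 204748_at, read 8.97 in the control, 8.13 in the wild-type and 10.09 in the mutant array. Against control it was 1.79-fold lower in the wild-type array and 2.17-fold higher in the mutant array, and the JMJD3 arrays differed by 3.89-fold. Probe set 1554997_a_at read 6.51, 5.36 and 7.93 in the same arrays, at the floor with wild-type only. There the wild-type array lay at least 2.04-fold under control and at least 5.46-fold under the mutant array, which was 2.68-fold over control.

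PTGS1, the constitutive cyclooxygenase, was read by 4 probe sets that gave 3 different orders. The brightest, 215813_s_at, read 12.14 in the control, 13.05 in the wild-type and 11.66 in the mutant array, and 205128_x_at read 12.12, 12.87 and 11.68. In these the wild-type array was highest and the mutant array lowest, with wild-type over mutant at 2.62-fold and 2.28-fold. Probe set 238669_at read 10.01, 10.62 and 11.50, so here the mutant array was highest, 2.81-fold over control. Probe set 205127_at read 7.52, 8.07 and 8.05, with the JMJD3 arrays level and both over control by 1.44-fold to 1.46-fold. The wild-type array exceeded control at all 4 probe sets, by 0.55 to 0.91 on the log2 scale, while the direction for mutant JMJD3 depended on the probe set.

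The first pair carry the suffixes _s_at and _x_at, given to probe sets whose probes match several transcripts, and the other pair do not. All genes were then compared by kind of probe set, a comparison chosen after the PTGS1 values were seen. Among the 3134 genes measured by both kinds in mutant against control, the median difference of the probe sets without these suffixes was above that of the shared ones in 1951 genes and below it in 1106. In wild-type against mutant it was above in 1094 and below in 2003 of 3154 genes, with a median gap of -0.13 on the log2 scale. The part of this in the PTGS1 values was not tested. Of the 21 member probe sets 14 are of the shared kind.

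PTGES, the inducible microsomal prostaglandin E synthase, had 2 shared probe sets with different patterns. Probe set 210367_s_at read 6.25 in the control, 6.80 in the wild-type and 7.34 in the mutant array, which is 1.46-fold and 2.13-fold over control. Probe set 207388_s_at read 6.81, 6.74 and 6.74, a span of 0.07 on the log2 scale. Their means over the arrays lay at percentiles 67.2 and 66.9 of all probe sets, so that which of them stands for the gene rests on a small gap, and with the median of both the mutant array was 0.51 over control on the log2 scale, under 2-fold.

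PTGER4, the EP4 receptor for prostaglandin E2, was highest in control. Probe set 204897_at read 9.29 in the control, 8.35 in the wild-type and 8.90 in the mutant array, which put the wild-type array 1.92-fold and the mutant array 1.31-fold under control. Its other probe set lay under the floor in every array, at 5.22 to 5.30. HPGD, which ends prostaglandin signalling, was not over the floor in any array: its 4 probe sets read between 2.91 and 4.01. No fold is given for HPGD, as values under the floor have no order.

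**Figure D2:**
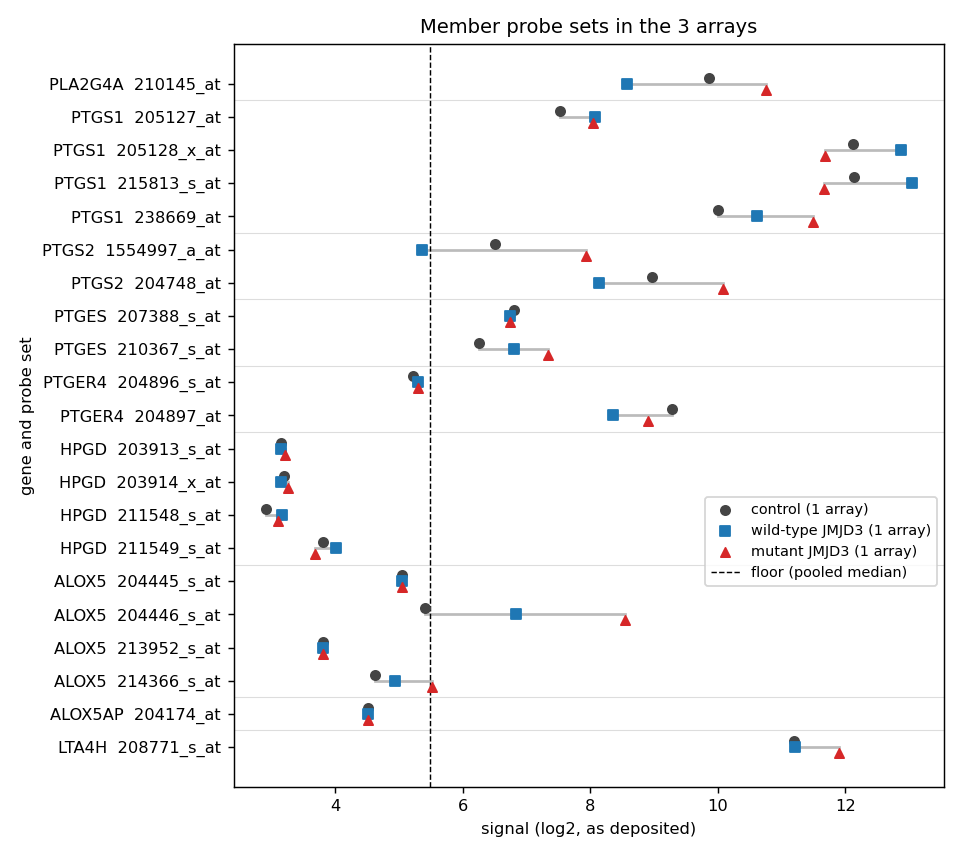
Deposited log2 signal (horizontal axis) of the 21 probe sets of the 9 genes in the 3 arrays, 1 point per array, with a grey line over their span and a dashed line at the floor of 5.48. The mutant point lies right of control and the wild-type point left of it for PLA2G4A and both PTGS2 probe sets, and the 4 PTGS1 probe sets do not share an order.

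ALOX5, the first enzyme of the leukotriene branch, was over the floor in both JMJD3 arrays and not in control, in one of its 4 probe sets. Probe set 204446_s_at read 5.41 in control, under the floor, 6.84 in the wild-type and 8.54 in the mutant array. The signal was at least 2.57-fold higher than control in the wild-type array and at least 8.34-fold higher in the mutant array, and the JMJD3 arrays differed by 3.25-fold. A floor raised to the 60th percentile put the log2 difference of wild-type from control at 0.67, and an offset instead of a floor put it at 0.87, so that neither reached 2-fold. Probe set 214366_s_at read 4.63, 4.94 and 5.51, over the floor in the mutant array only. The remaining pair read the same in every array, 5.04 at 204445_s_at and 3.80 at 213952_s_at. Identical values in all arrays were held by 34.8% of the probe sets whose mean was at or under the floor and by 7.28% of those over it.

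ALOX5AP, the partner that presents arachidonic acid to 5-lipoxygenase, read 4.52 in all arrays at its only probe set, under the floor. LTA4H read 11.20 in the control, 11.21 in the wild-type and 11.91 in the mutant array at its only probe set, 208771_s_at. It was 1.64-fold higher than control with mutant and differed by 0.01 on the log2 scale with wild-type. Leukocyte markers were read beside ALOX5. Of the 10 with a probe set of their own, 2 or 3 were over the floor in each array, none above log2 5.85, and PTPRC, CD14, ITGAM, LYZ, CD3E, FCER1G and SPI1 were at or under it throughout. The summed linear signal of the 10 was 280 to 317 over the arrays, and as most of these markers lie under the floor no order is read from it. Their part in the ALOX5 values was not tested. Of 4 mast cell markers 1, TPSAB1, was over the floor, at 5.81 in all arrays.

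Over the members, 7 of 9 were measured, and counts at 2-fold used the brightest probe set of each. In wild-type against control, 1 member was higher (ALOX5) and 1 lower (PLA2G4A), where 0.953% of all 12697 measured genes were higher and 1.31% lower. PTGER4 (-0.94), PTGS1 (0.91) and PTGS2 (-0.84) lay just inside 2-fold on the log2 scale. In mutant against control, 3 were higher (ALOX5, PTGS2 and PTGES) and 0 lower, where 2.98% of all 12707 measured genes were higher and 0.535% lower; PLA2G4A (0.89) was nearest among the rest. In wild-type against mutant, 1 was higher (PTGS1) and 3 lower (PLA2G4A, PTGS2 and ALOX5), where 2.61% of all 12829 measured genes were higher and 6.20% lower. The median log2 difference of the 7 was 0.01, 0.89 and -0.70 in these comparisons, beside 0.05, 0.00 and 0.00 over all measured genes. As the members were chosen on these values, nothing is read from the counts. The comparisons share arrays, and each is given for its own values.

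**Figure D3:**
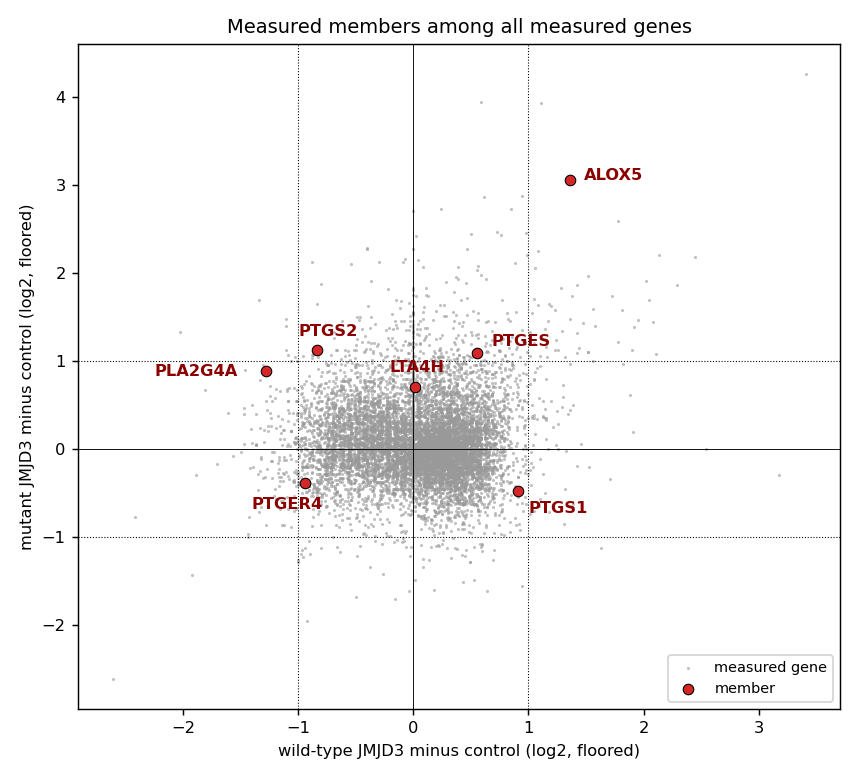
Log2 difference from control after flooring, with wild-type JMJD3 on the horizontal and mutant JMJD3 on the vertical axis; grey points are measured genes, red points the 7 measured members, dotted lines mark 2-fold, and both axes share the control array. ALOX5 lies at 1.36 and 3.06, PLA2G4A and PTGS2 lie left of 0 and above 0, and PTGS1 lies right of 0 and below 0.

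The genes nearest in pattern were taken by Euclidean distance between the pairs of differences from control, among 12867 genes and over 3 arrays. Each gene was read at its brightest probe set. The genes nearest to PTGS1 and PTGES thus rest on 215813_s_at and 210367_s_at, whose patterns were not shared by all probe sets of these members. For PTGS2 they were FAM200C, CREBRF, DPY19L2P2 and PPARGC1A, at distances of 0.01 to 0.08 on the log2 scale. For PLA2G4A they were GALNT12, KRCC1, GKAP1 and ARL6 (0.07 to 0.18), of which GALNT12 and ARL6 were under the floor in the wild-type array, for PTGES POLR1D, SPACA9, TRIM69 and SUSD2 (0.02 to 0.06), and for PTGS1 RIT1, APH1B, SLC49A4 and SMPD1 (0.00 to 0.07). For ALOX5, whose differences from control are lower bounds, the distances depend on the floor. TEX19, DEFB1, SOX9 and IFITM1 were nearest to the bounds, at 0.46 to 0.72, further off than the genes named for the other members. With 3 arrays a small distance says only that the differences were alike in these arrays.

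Other genes of the pathway came from 8 lists of 72 genes, of which 65 had a probe set of their own and 40 were over the floor in at least 1 array. Of 40 measured in wild-type against control, 1 was higher by 2-fold and 0 lower, with a median difference of 0.13. Of 38 measured in mutant against control, 3 were higher and 0 lower, with a median of 0.00. Of 40 in wild-type against mutant, 0 were higher and 6 lower, with a median of 0.23. In these comparisons 0.953%, 2.98% and 2.61% of all measured genes were higher by 2-fold, and 1.31%, 0.535% and 6.20% were lower. The medians over all measured genes were 0.05, 0.00 and 0.00.

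Around arachidonic acid release, 14 of 20 listed genes were measured. PLA2G12A, a secreted phospholipase A2, read 8.49 in the control, 7.70 in the wild-type and 9.37 in the mutant array at 242323_at, with the JMJD3 arrays 3.18-fold apart. Probe set 228084_at went the same way (7.83, 7.09 and 8.94), but its shared probe sets 221027_s_at (8.04, 8.37 and 8.27) and 223373_s_at (8.14, 8.40 and 8.0) did not. ANXA1, annexin A1, known as an inhibitor of phospholipase A2, read 11.87, 11.06 and 12.09 with the wild-type array 2.04-fold under the mutant array, as in its other probe set (7.34, 6.27 and 8.12). ACSL4, which couples arachidonic acid to coenzyme A, read 7.98, 7.84 and 8.98 at the shared 202422_s_at, and was 2-fold higher than control with mutant. It fell short of 2-fold there with quantile normalization and with an offset instead of a floor. The other probe sets of ACSL4 lay under the floor in every array. MGLL, the lipase that frees arachidonic acid from an endocannabinoid, read 9.37, 10.37 and 10.00, highest with wild-type at 2-fold over control.

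Of 10 other prostanoid synthases listed, 6 were measured, and none of these differed by 2-fold in any comparison. AKR1C3, which makes prostaglandin F2, read 11.69 in control, 12.43 with wild-type and 12.62 with mutant JMJD3, higher than control by 1.67-fold and 1.91-fold. PTGDS, a prostaglandin D2 synthase, read 7.11, 7.11 and 7.93 at a shared probe set. PTGES2, a membrane-associated prostaglandin E synthase, read 8.58, 8.87 and 8.25, and was lowest in the mutant array, where PTGES was highest at 210367_s_at. Among the other prostanoid receptors, 4 of 8 were measured. The thromboxane receptor TBXA2R read 9.77, 10.36 and 9.57, with the wild-type array 1.73-fold over the mutant array, and PTGIR, PTGDR2 and PTGER1 spanned 0.24 to 0.30 on the log2 scale.

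For transport and inactivation, the median over 6 measured genes was -0.23 for wild-type and 0.25 for mutant against control. Over all measured genes these medians were 0.05 and 0.00. With wild-type, 2 of the 6 were lower by 2-fold than with mutant, where 6.20% of all measured genes were. Nothing is read from this count. SLCO2A1, which carries prostaglandins into cells, read 5.73 in control, 5.68 with wild-type and 6.91 with mutant JMJD3, 2.27-fold higher with mutant than in control. PTGR2, a prostaglandin reductase, read 6.09, 5.78 and 6.89, with the wild-type array 2.16-fold under the mutant array. With the floor raised to the 60th percentile, neither SLCO2A1 nor PTGR2 differed by 2-fold in any comparison. PTGR3, another reductase, was split by probe set, with 1554239_s_at at 8.16, 8.71 and 7.74 and 227049_at at 7.96, 7.53 and 8.73.

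No other lipoxygenase was measured: all 5 (ALOX12, ALOX12B, ALOX15, ALOX15B and ALOXE3) lay at or under the floor in every array. On the leukotriene side, the glutathione transferases MGST3 (12.14, 13.10 and 12.38) and MGST2 (9.76, 10.20 and 9.35) were highest with wild-type JMJD3, as was the leukotriene C4 exporter ABCC1 (10.06, 10.72 and 10.14). None of them reached 2-fold, and MGST3 came nearest, at 1.95-fold over control at 201403_s_at. Its probe set 233307_x_at read 7.75, 7.80 and 7.80, with the JMJD3 arrays level. LTC4S, the leukotriene C4 synthase, lay at the floor in all arrays. The leukotriene B4 receptor LTB4R read 7.10, 7.11 and 6.76 at 210128_s_at and 6.37, 6.40 and 6.15 at 216388_s_at, both shared. Its probe set 236172_at, not of the shared kind, read 6.42, 6.75 and 6.72, so there the control array was lowest. In the epoxide branch CYP1B1, a cytochrome P450 that also oxidises arachidonic acid, read 9.25, 9.21 and 10.91, which is 3.16-fold over control with mutant JMJD3, and 2 further shared probe sets went the same way (8.87, 8.69 and 10.25 at 202435_s_at).

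**Figure D4:**
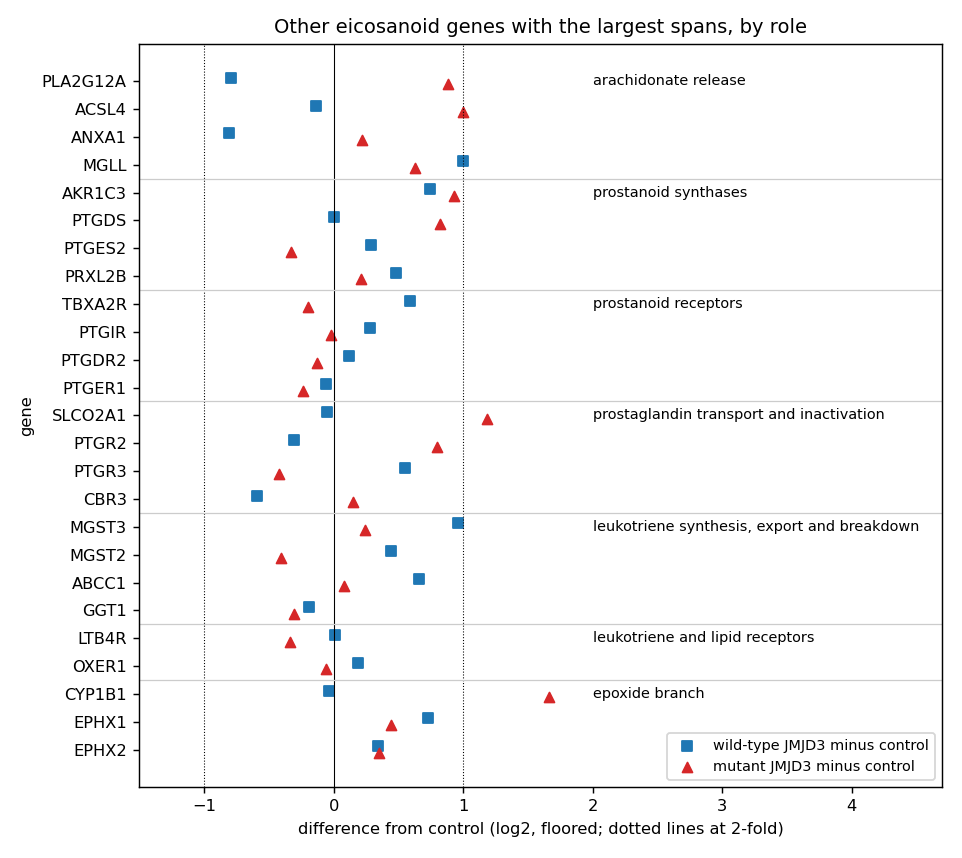
Log2 difference from control (horizontal axis) of the up to 4 genes with the largest span in each list of other eicosanoid genes, for wild-type JMJD3 (squares) and mutant JMJD3 (triangles), 1 array each; dotted lines mark 2-fold. CYP1B1 and SLCO2A1 lie past 2-fold with mutant JMJD3 at 1.66 and 1.18, ACSL4 lies on the line, and no gene lies past 2-fold on the lower side.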

How the data were processed

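Total RNA of 3 PANC-1 lines was hybridised as biotin-labelled cRNA to Affymetrix arrays, 1 per line. The deposited log2 values (54613 probe sets, 2 decimals) were made by the authors with MAS5, per the submitters' processing notes; its settings and the normalization between arrays are not given in the sources used here. Probe sets were named by the platform annotation: 41091 have 1 symbol, 1801 several and 11721 none here. The probe set with the highest mean stood for a gene, except that every probe set of a member is given. Differences were taken after flooring at the pooled median (log2 5.48). There was 1 array per line, so no test was made, and the number of arrays limits the precision.

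Members, lists and rules were chosen with earlier results of these data known. Named genes are the members, KDM6B, up to 4 genes per list with the largest span, and the 4 nearest genes in pattern for each member spanning 1 or more on the log2 scale. Markers of endothelium (1 of 4 over the floor, PECAM1, at 6.27 to 6.28 at 1559921_at and under the floor at its other probe sets) were also read. A planned protein comparison was not made. The 2 other scalings, 2 floors, an added offset, the median of a gene's probe sets and the omission of shared ones (_s_at, _x_at) were the alternatives. The calculation was tested on simulated data, with changes well past 2-fold placed in bright genes. That check does not cover values near the floor, changes near 2-fold or genes whose probe sets disagree. Calculations ran in Python 3.11.15 with pandas 2.3.3 and numpy 2.4.6, and plots in matplotlib 3.10.9. Promoters come from RefSeq (GRCh38.p14).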

Additional observations from a re-analysis of the deposited data

Results flagged for a closer look

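The following genes were on opposite sides of control in the wild-type and mutant JMJD3 arrays and at least 2-fold apart between them, which is why they are listed; the difference was not tested, as each line has 1 array. On the log2 scale against control, PLA2G4A was at -1.28 with wild-type and 0.89 with mutant JMJD3, PTGS2 at -0.84 and 1.12, and PTGS1 at 0.91 and -0.48 at its brightest probe set. Among the other pathway genes PLA2G12A was at -0.79 and 0.88 at its brightest probe set 242323_at, with the same signs at 228084_at. Its shared probe sets were at 0.33 and 0.23 (221027_s_at) and at 0.26 and -0.14 (223373_s_at). ANXA1 was at -0.81 and 0.22. PTGR2 was at -0.31 and 0.80. ACSL4 (-0.14 and 1.0), SLCO2A1 (-0.05 and 1.18) and CYP1B1 (-0.04 and 1.66) were close to control with wild-type JMJD3, so that their opposite sign there rests on small values.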

How the results depend on the processing

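No paired analysis was possible because each line has 1 array. Under the alternatives 135 differences of single members could be taken. Of these, 127 kept their direction and their side of 2-fold, 5 kept their direction and crossed 2-fold, and 3 turned sign, all of PTGS1. Many of the 127 could hardly have changed. The array medians were already nearly equal (5.48 to 5.50), so the other scalings moved little. Except for ALOX5, the brightest probe sets of the measured members lay over both alternative floors (4.89 and 6.17) in every array. Differences that were no longer measured are not in the 135. For PTGS1, mutant against control was 0.52 with the median over probe sets and 1.49 without shared probe sets. Its wild-type against mutant difference was -0.88 without shared probe sets. The members higher by 2-fold in wild-type against control fell from 1 to 0 when the floor was raised to the 60th percentile, with the offset, with the median over probe sets and without shared probe sets, which are all the probe sets of ALOX5. ALOX5 was not measured with the median over probe sets or without shared ones. PTGES and LTA4H have only shared probe sets, so without these they were not measured either, and 4 members remained. The median over probe sets left 1 member higher in mutant against control (PTGS2) and 0 in wild-type against mutant, as did leaving out shared probe sets for the latter (0). Without shared probe sets the 2 members higher in mutant against control were PTGS1 and PTGS2, in place of ALOX5, PTGES and PTGS2. ALOX5 in wild-type against control was 0.67 under that higher floor and 0.87 with the offset, and PTGES in mutant against control was 0.78 with the offset and 0.51 with the median over probe sets. PLA2G4A in wild-type against mutant stayed between -2.17 and -2.05, PTGS2 between -2.26 and -1.80, and ALOX5 in mutant against control between 2.26 and 3.13 where it was measured. Among the other pathway genes, those higher in wild-type against control fell to 0 with quantile normalization and with the offset, those higher in mutant against control to 1 with the offset and 1 without shared probe sets, and 1 was higher in wild-type against mutant with quantile normalization, where the main count was 0.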
